A study of Macaca mulatta with 8 samples.

Results

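Guanylate-binding proteins (GBPs) are large GTPases that cells make in response to interferons, above all interferon gamma. Interferon gamma binds the IFNGR1 and IFNGR2 receptor chains and acts through the kinases JAK1 and JAK2. Transcription factors such as IRF1 then switch on GBP genes, whose products bind and hydrolyse GTP and gather on the membranes of intracellular pathogens and of the vacuoles that hold them. GBP1, GBP2 and GBP5 carry a lipid anchor at their carboxyl end, which GBP3 lacks. In the retina, microglia are the resident immune cells and Müller glia the main supporting cells, and both can respond to interferon.

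The family was looked for by 4 gene symbols, GBP1, GBP2, GBP3 and GBP5, in the gene list of every library. GBP3 (ENSMMUG00000000662) was the single symbol of the 4 that matched, as 1 of 26533 features, and GBP1, GBP2 and GBP5 were not analysed here. All values below are therefore those of GBP3, which had 19881 unique molecular identifiers (UMIs, each a captured transcript) in 83192 cells. The family had been chosen with its levels in these cells known, so its levels by cell class, area and eye are descriptions and carry no test. The features GBP6 and GBP7, which lie outside the 4 symbols, are described with the interferon pathway.

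The data were single-cell RNA profiles of dissociated retina from 2 male rhesus macaques (Macaca mulatta), as 8 libraries with 1 per area and eye. NHP1, aged 5 years, had received AAV2-CAG-hRPE65 in both eyes, a human RPE65 vector with the ubiquitous CAG promoter, and gave 1 library per eye from an area labelled as uninjected. NHP2, aged 6 years, had received AAV8-GRK1-hRPGR and AAV8-GRK1-mScarlet in separate subretinal blebs of each eye, both driven by the photoreceptor promoter GRK1, and gave libraries of each bleb and of an uninjected area. The study's methods give the steroid triamcinolone for all eyes and, for left eyes, adalimumab as well, an antibody against tumour necrosis factor, so that left and right eyes also differ in treatment and serve as 2 replicates of each area in 1 animal. Any p-value for NHP2 therefore measures the spread between these eyes, not between animals.

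The libraries held 90634306 to 146519011 UMIs and 9562 to 15080 cells of at least 1500 UMIs, with medians of 4606 to 6036 UMIs per cell. After removal of 8604 likely doublets, 43 of 60 clusters were named by marker genes (the suffix "-like" marks this), and 17 clusters with 21044 cells stayed unnamed, 16773 of those cells with rod transcripts. The transgenes followed the labels in the blebs, where coRPGR, the codon-optimised RPGR transgene, reached 3409 (right) and 943 (left) CPM (UMIs per 1000000 UMIs of the cells summed) and mScarlet 192 and 137 CPM. Libraries labelled uninjected were not all free of transgene: the right NHP2 library held 8462 coRPGR UMIs (137 CPM), and the left NHP1 library held 27286 huRPE65 UMIs (354.5 CPM). The right mScarlet library held 18.1 CPM of coRPGR. No 2 libraries shared more than 2.16% of the cell barcodes of the smaller one.

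GBP3 lies on the plus strand of chromosome 1, at positions 135415353 to 135430762 of Mmul_10 (15410 bases) in the RefSeq annotation. Its 1 annotated transcript has 11 exons and 2400 bases, of which 1785 are coding. The 250 bases before its start (chr1:135415103-135415352, plus strand, 5′ to 3′) are shown as the stretch next to the start of the gene whose transcripts are counted here:
GBP3 upstream region: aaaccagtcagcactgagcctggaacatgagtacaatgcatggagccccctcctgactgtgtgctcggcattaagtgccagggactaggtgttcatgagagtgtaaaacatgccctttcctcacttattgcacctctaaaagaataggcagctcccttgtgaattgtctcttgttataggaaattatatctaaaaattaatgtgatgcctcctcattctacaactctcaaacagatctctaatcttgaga
This window was searched on both strands for GAAANNGAAA, the core of the interferon-stimulated response element, and for TTCNNNGAA, the core of the gamma-activated site. Neither occurred, so no letters are in capitals. The first was present in 629 of 20787 windows of the same length before other genes (3.03%) and the second in 1243 (5.98%).

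Reads of GBP3 may be shared with near copies. The annotated transcript of LOC694538 matched GBP3 over 2160 bases at 89.6% identity, that of LOC694684 over 1703 bases at 84.4%, and that of LOC695462 over 641 bases at 91.1%. Of 2311 stretches of 90 bases along the GBP3 transcript, 235 (10.2%) occurred unchanged on the same strand of LOC694538. At 50 bases 374 of 2351 (15.9%) did so in LOC694538, LOC694684, LOC695462 or GBP7 (73.9% identity over 1148 bases). The last 136 bases matched LOC106999570 (100%) and ZCRB1 (99.3%) on the opposite strand, which these counts leave out. How such reads were assigned is not given in the sources used here, so a GBP3 value may hold reads of these genes, and a GBP7 value reads of GBP3.

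GBP3 was highest in myeloid-like cells (the cells with microglial and macrophage markers such as C1QA and CD74) in all 8 libraries, among classes of at least 20 cells. In NHP2 these cells held 403 CPM (right) and 894 CPM (left) in the uninjected areas, 439 and 464 CPM in the hRPGR blebs, and 622 and 1141 CPM in the mScarlet blebs. The left eye was above the right in each area, and the uninjected range overlapped those of both blebs. The class joined 2 clusters, both with CD74 as leading gene. Cluster 25 held 495 and 1054 CPM in the uninjected areas, 572 and 593 CPM in the hRPGR blebs and 728 and 1326 CPM in the mScarlet blebs. Cluster 26, which was 57.8% and 47.0% of the uninjected myeloid-like cells, held 141 and 12.5 CPM (20 UMIs and 1 UMI), 81.1 and 87.9 CPM, and 241 and 246 CPM. The uninjected levels rested on few cells, since 5 of 83 (right) and 4 of 83 (left) held 50% of the 222 and 465 GBP3 UMIs. In NHP1 the left eye held 431 CPM over 121 myeloid-like cells and the right eye 34.1 CPM over 33 cells and 6 UMIs. T/NK-like cells came next in the uninjected areas of NHP2, at 219 and 92.0 CPM over 24 and 36 cells, and stood at 189 and 150 CPM in the hRPGR blebs and 211 and 190 CPM in the mScarlet blebs, again with overlap.

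Bipolar-like cells, the neurons that carry photoreceptor signals inward, held little GBP3 outside the blebs. They had 6.22 (right) and 5.16 (left) CPM in the uninjected areas of NHP2 and 6.66 and 8.60 CPM in NHP1. In the hRPGR blebs they had 20.5 and 31.9 CPM, and in the mScarlet blebs 173 and 227 CPM. Both blebs lay above both uninjected areas without overlap, as did 14.6% (hRPGR) and 22.4% (mScarlet) of all genes with 10 or more UMIs. Over all genes tested, edgeR called 0.0694% and 0.849% in this contrast, by which GBP3 had been chosen. The ratio of group means was 4.61-fold for hRPGR and 35.2-fold for mScarlet (log2 ratios of 2.21 and 5.14), with a spread of replicates of 0.49 and 0.34 on that scale. The hRPGR levels rested on few cells, since 6 of 453 (right) and 19 of 824 (left) held 58.9% and 81.9% of the GBP3 UMIs.

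Müller-like cells showed the same order of areas. They held 8.34 (right) and 4.05 (left) CPM in the uninjected areas, 55.6 and 39.1 CPM in the hRPGR blebs and 146 and 245 CPM in the mScarlet blebs, and 5.51 and 7.65 CPM in NHP1. The blebs again lay above without overlap, as did 13.6% and 30.8% of all genes with 10 or more UMIs (edgeR called 0.0078% and 0.203%). The mean ratios were 7.64-fold for hRPGR and 31.5-fold for mScarlet. The mScarlet ratio was 17.5-fold in the right eye and 60.5-fold in the left, so it moved with the eye more than that of bipolar-like cells (27.8-fold and 44.1-fold).

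Horizontal-like and amacrine-like interneurons held GBP3 at lower levels. Horizontal-like cells had 3 and 2 UMIs in the uninjected areas (2.50 and 2.44 CPM), 6.58 and 42.5 CPM in the hRPGR blebs and 71.0 and 89.5 CPM in the mScarlet blebs. The right hRPGR value rested on 7 UMIs and was below free RNA, described below. The left hRPGR value rested on 26 UMIs over 36 cells, with 12 UMIs in 1 cell. Amacrine-like cells had 8.85 and 4.39 CPM in the uninjected areas, 4.93 and 5.57 CPM in the hRPGR blebs and 36.8 and 32.3 CPM in the mScarlet blebs. For amacrine-like cells the hRPGR blebs overlapped the uninjected areas. The mScarlet blebs lay above them, as did 15.1% of all genes with 10 or more UMIs in this class. In the left eye this mScarlet level was below free RNA, described below. It rested on few cells, since 2 of 137 (right) and 5 of 208 (left) held 50% of the 49 and 85 UMIs. Ganglion-like cells had 0 to 3.98 CPM outside the mScarlet blebs and 6.53 and 15.6 CPM in them, over 28 and 47 cells. Both mScarlet values were below free RNA, described below. Of the 7 right and 38 left UMIs, 5 and 18 lay in 1 cell each. The share of all genes with such an order was not counted in this class. Plasma-like cells, the antibody-secreting cells, had 99.8 and 155 CPM in the mScarlet blebs, over 80 and 232 cells.

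The photoreceptors, where the GRK1 promoter is active, held little GBP3 in every area. Rod-like cells had 1.70 (right) and 2.03 (left) CPM in the uninjected areas, 3.33 and 1.65 CPM in the hRPGR blebs, and 3.75 and 4.71 CPM in the mScarlet blebs. Cone-like cells had 0.913 and 0.696 CPM (6 and 4 UMIs) in the uninjected areas, 2.98 and 1.54 CPM in the hRPGR blebs, and 5.21 and 3.56 CPM in the mScarlet blebs, where 1 right cone-like cell held 14 of the 32 UMIs. The rod-like hRPGR bleb overlapped the uninjected areas, and the other 3 photoreceptor comparisons did not, as was so for 30.9% of all genes with 10 or more UMIs in rods (mScarlet, higher in the bleb) and 19.2% (hRPGR) and 39.5% (mScarlet) in cones. Of all genes tested, 0% (hRPGR) and 1.36% (mScarlet) were called in rods, and 0.0784% and 2.32% in cones. The ratios for mScarlet were 2.26-fold in rods and 5.46-fold in cones.

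The photoreceptor levels of the blebs were below the free RNA there. Barcodes with 100 to 1000 UMIs, taken as free RNA, held 0.727 and 1.95 CPM of GBP3 in the uninjected areas, 9.06 and 3.98 CPM in the hRPGR blebs and 15.6 and 35.7 CPM in the mScarlet blebs. Rod-like cells were at 0.240 and 0.132 times the free RNA of the mScarlet blebs, but at 2.34 and 1.04 times that of the uninjected areas, so that free RNA moved with the photoreceptor values and its part in them was not tested. With 0.1 of the free RNA level subtracted, the log2 ratio of rods between mScarlet and uninjected areas became -0.058 in place of 1.18. That of cones became 1.45 in place of 2.45. In the mScarlet blebs bipolar-like cells stood 11.1 and 6.37 times above free RNA, Müller-like cells 9.35 and 6.87 times, and myeloid-like cells 39.8 and 32.0 times. Ganglion-like cells of these blebs (6.53 and 15.6 CPM) were below free RNA in both eyes. Amacrine-like cells were below it in the left eye (32.3 CPM) and above it in the right (36.8 CPM). In the right hRPGR bleb horizontal-like (6.58 CPM) and amacrine-like cells (4.93 CPM) were below free RNA (9.06 CPM). The part of free RNA in these values was not tested.

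**Figure D1:**
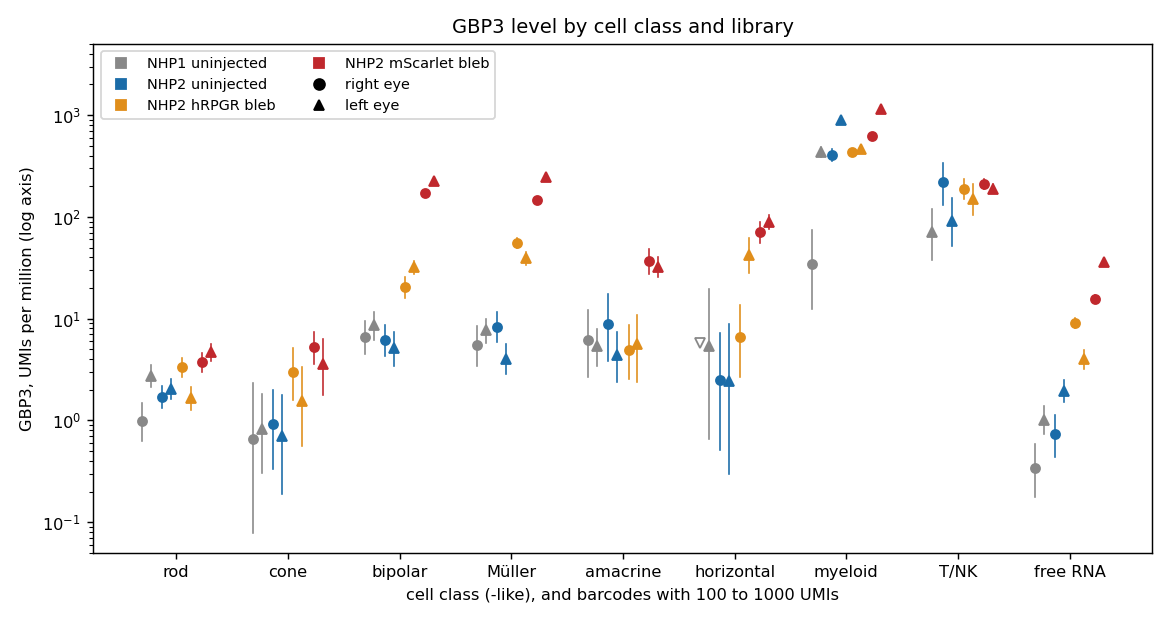
GBP3 level (CPM of the class, log axis) by cell class and in free RNA, with 1 symbol per library for each area and eye. Myeloid-like cells are highest in every library, among classes of at least 20 cells; bipolar-like and Müller-like cells go from 4.05 to 8.34 in the uninjected areas of NHP2 to between 146 and 245 in the mScarlet blebs, while rods and cones stay below 6.

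Group means within the mScarlet blebs were ordered among named classes of at least 20 cells in each eye. The order was myeloid-like (881 ± 367 CPM, SD, n = 2 eyes), T/NK-like (200 ± 14.7), bipolar-like (200 ± 38.1), Müller-like (196 ± 70.0), plasma-like (128 ± 39.3), horizontal-like (80.3 ± 13.0), amacrine-like (34.6 ± 3.15), ganglion-like (11.1 ± 6.44), cone-like (4.39 ± 1.17) and rod-like (4.23 ± 0.683). The T/NK-like, bipolar-like and Müller-like levels did not differ beyond their spread, nor did those of cones and rods. Plasma-like and Müller-like cells overlapped as well, whereas horizontal-like cells lay below all of these and above amacrine-like cells without overlap. This order of classes is a description, as the share of all genes with such an order was not counted.

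Because class size also sets where transcripts sit, the source of each library's GBP3 was counted. Myeloid-like cells made up 0.760% to 5.40% of the cells of the NHP2 libraries and held 42.8% to 66.3% of their GBP3 UMIs. In the mScarlet blebs bipolar-like cells held 18.7% and 15.7% and Müller-like cells 14.1% and 12.1%, against 1.75% and 1.06% for rod-like cells, which were 45.7% and 44.1% of all cells. Immune cells were also a larger share there: myeloid-like cells were 5.40% and 3.90% of cells in the mScarlet blebs and 0.884% and 0.760% in the uninjected areas, and T/NK-like cells 2.67% and 4.11% against 0.256% and 0.330%.

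The share of cells with a GBP3 UMI was compared with all cells reduced at random to 1500 UMIs. For bipolar-like cells it was 1.32% and 0.822% in the uninjected areas, 1.32% and 2.31% in the hRPGR blebs, and 12.1% (95% exact binomial interval 9.87 to 14.6) and 16.6% (14.3 to 19.0) in the mScarlet blebs. For Müller-like cells it was 0.594% and 0.625%, then 3.45% and 1.91%, then 5.92% (4.28 to 7.94) and 11.95% (9.89 to 14.3). In rod-like cells, whose level was below free RNA, it was 0.620% and 0.774% in the mScarlet blebs, at median depths of 5160 and 4400 UMIs against 7255 and 6739 for bipolar-like and 6218 and 4078 for Müller-like cells. The intervals of the bipolar-like hRPGR shares overlapped those of the uninjected areas, although the CPM lay above. For Müller-like cells the left hRPGR interval (1.15 to 2.97) overlapped them too, and the right (2.27 to 5.02) did not. Without thinning, the shares in the mScarlet blebs were 23.8% and 30.3% for bipolar-like, 14.1% and 21.2% for Müller-like and 2.13% and 2.17% for rod-like cells. Myeloid-like cells had shares of 16.9% and 30.1% in the uninjected areas and 29.98% and 40.8% in the mScarlet blebs. These intervals cover counting error only.

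**Figure D2:**
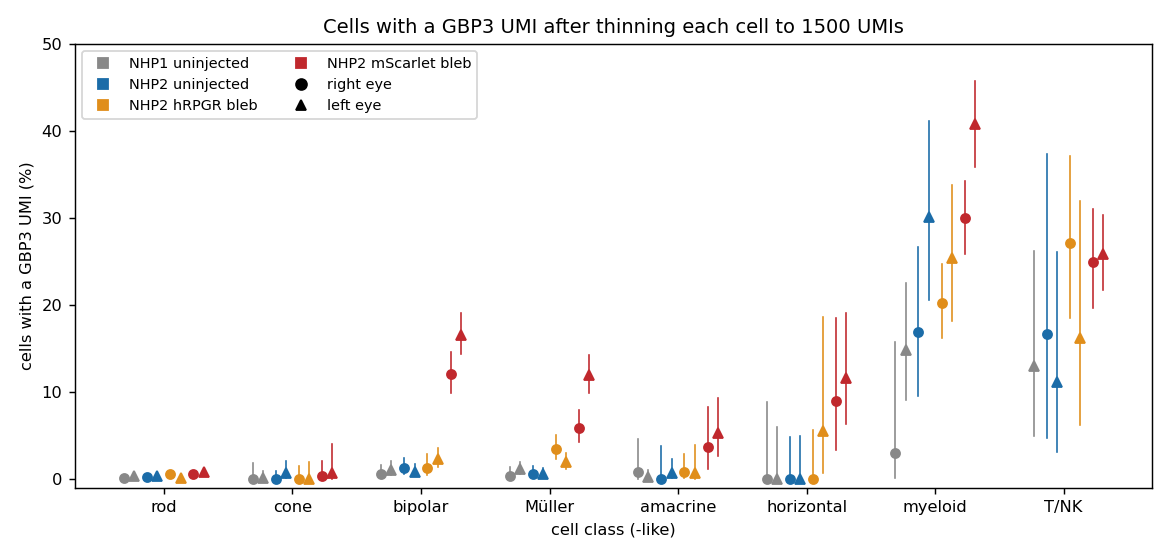
Share of cells with at least 1 GBP3 UMI after thinning to 1500 UMIs per cell (y axis, %), by cell class, area and eye, with bars for the exact 95% binomial interval. In the mScarlet blebs the bipolar-like shares are 12.1% and 16.6% and the Müller-like shares 5.92% and 11.95%, while rod-like cells stay under 1% in all libraries.

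The GBP3 of the blebs sat in few cells. Of the 693 and 887 Müller-like cells of the mScarlet blebs, 85.9% and 78.8% held no GBP3 UMI, while 26 cells (3.75%, right) and 64 cells (7.22%, left) held 3 or more and with them 88.3% and 86.7% of the class's GBP3. One right cell held 199 UMIs and one left cell 160, and 50% of the UMIs lay in 4 and 10 cells. Bipolar-like GBP3 was spread over more cells: 81 of 769 (10.5%) and 152 of 1001 (15.2%) held 3 or more, with 86.9% and 87.2% of the UMIs, and the highest cell held 40 and 36. In the hRPGR blebs 6 and 19 bipolar-like cells and 13 and 17 Müller-like cells held 3 or more. With them they held 58.9% and 81.9% of the bipolar-like and 75.3% and 78.9% of the Müller-like GBP3. The highest bipolar-like cell held 25 of 73 (right) and 38 of 210 (left) UMIs. The highest Müller-like cell held 77 of 271 and 43 of 213. In the uninjected areas of NHP2 this was 1 bipolar-like cell, in the left eye, and no Müller-like cell.

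Of 11 genes that interferon induces on the pathway list, 10 were higher in both eyes in Müller-like cells with 3 or more GBP3 UMIs than in those with none, for either vector. Of all genes with 10 or more UMIs in these cells, 25.5% (mScarlet) and 25.6% (hRPGR) were higher in both eyes. The exception was CXCL9, with 1 and 3 UMIs in the right blebs. The genes named next were chosen with values known. Against Müller-like cells of the same mScarlet bleb with no GBP3 UMI, those with 3 or more held 837 (right) and 644 (left) CPM of IRF1 in place of 28.4 and 58.3. They held 1531 and 1440 CPM of PSMB8, an immunoproteasome subunit, in place of 172 and 181. For CXCL10, a chemokine that attracts T cells, the values were 11130 and 5139 CPM in place of 44.8 and 83.9, and for GBP7, which shares some sequence with GBP3, 168 and 177 CPM in place of 4.38 and 6.19. In the hRPGR blebs, over 13 and 17 such cells, IRF1 was 325 and 682 CPM in place of 29.4 and 19.5, and CXCL10 4079 and 4061 CPM in place of 19.7 and 26.8. As these genes were chosen with values known, the shared direction of these pairs carries no weight.

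In bipolar-like cells of the mScarlet blebs 8 of the 11 genes had 10 or more UMIs, and all 8 were higher in both eyes, against 25.5% of all genes. With hRPGR 4 of 7 such genes were, against 16.4% of all genes, and the cells with 3 or more GBP3 UMIs numbered 6 and 19 and held no CXCL10 UMI. In the mScarlet blebs IRF1 was at 230 and 212 CPM in place of 18.9 and 18.8, and PSMB8 at 575 and 665 in place of 64.8 and 58.1. CXCL10, so high in the Müller-like cells, was at 10.6 and 23.0 CPM in these bipolar-like cells, below free RNA (14.9 and 82.0 CPM). CD74 was at 31.8 and 48.6 CPM in place of 20.4 and 41.4, also below free RNA (232 and 501 CPM). The part of free RNA in both was not tested. The summed myeloid markers were 13.6 and 48.6 CPM in bipolar-like cells with 3 or more GBP3 UMIs and 24.0 and 31.7 in those with none. In Müller-like cells they were 1553 and 1242 against 1158 and 1107, where myeloid-like cells held 14230 and 16590 CPM. Depth also differed: the median of Müller-like cells went from 4127 and 3301 UMIs with no GBP3 UMI to 12300 and 9514 with 3 or more, and that of bipolar-like cells from 7030 and 6491 to 7909 and 7474, and its part in these differences was not tested.

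**Figure D3:**
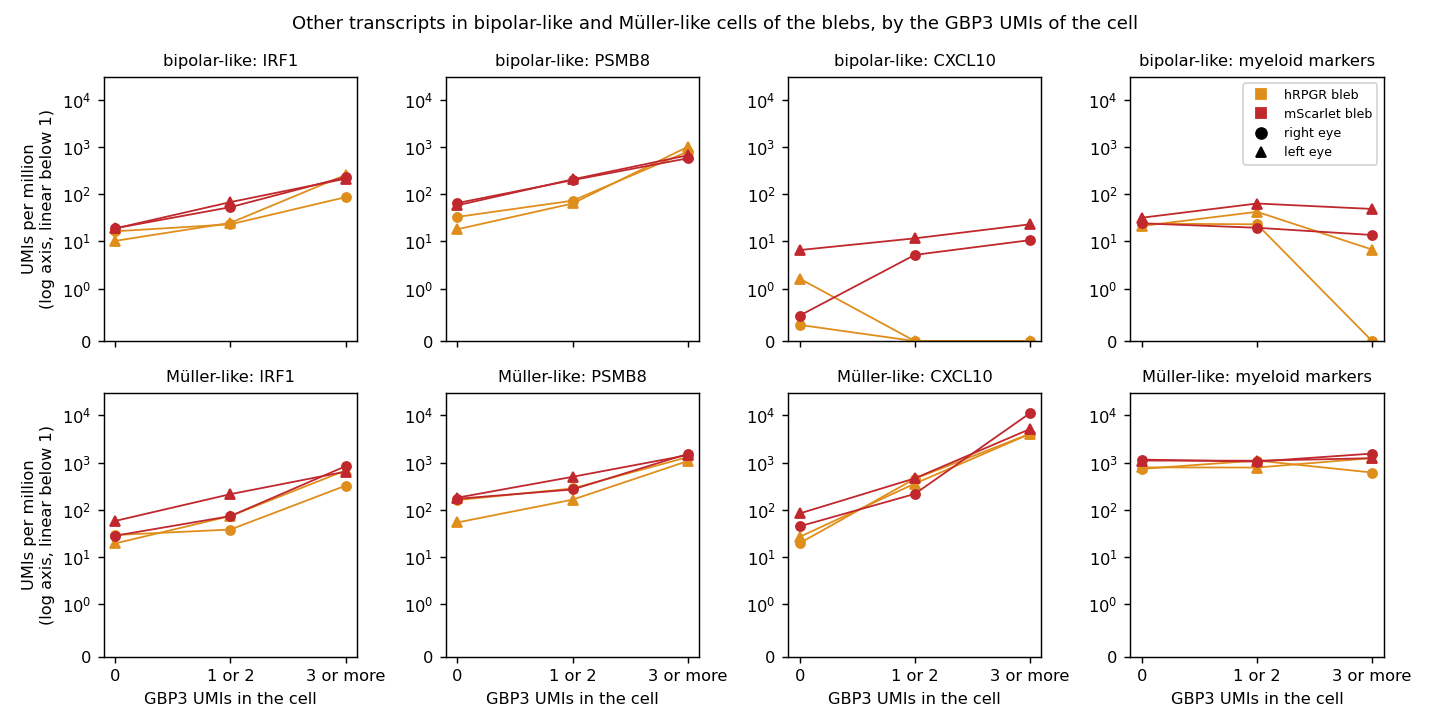
Levels of other transcripts (CPM, log axis that is linear below 1) in bipolar-like and Müller-like cells of the hRPGR and mScarlet blebs, by the GBP3 UMIs of the cell (0, 1 or 2, 3 or more), with 1 symbol per eye. In Müller-like cells of the mScarlet blebs CXCL10 goes from 44.8 and 83.9 at 0 UMIs to 11130 and 5139 at 3 or more.

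GBP3 was uneven over the clusters of bipolar-like cells. GBP genes, the pathway genes and the transgenes had been left out of clustering. In the mScarlet blebs, cluster 33 (leading genes GRIK1, NTNG1 and NETO1) held 443 CPM over both eyes and cluster 17 (PCP2, TSHB and TRPM1) held 320 CPM. Cluster 41 (UNC5D, HS3ST4 and TRPM1) held 21.5 CPM and was the lowest. By eye, cluster 33 held 346 (right) and 534 (left) CPM over 48 and 60 cells, cluster 17 held 318 and 322 CPM over 201 and 246 cells, and cluster 41 held 28.1 and 13.8 CPM over 51 and 47 cells. The cluster 41 values rested on 12 and 5 UMIs. The left one was below the free RNA of its library (35.7 CPM), whose part in it was not tested. These 3 clusters were named for their levels over both eyes, so their order by eye is a description and no separate support. In the uninjected areas these clusters held 5.47 CPM (3 UMIs), 6.45 CPM (22 UMIs) and 6.73 CPM (3 UMIs).

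**Figure D4:**
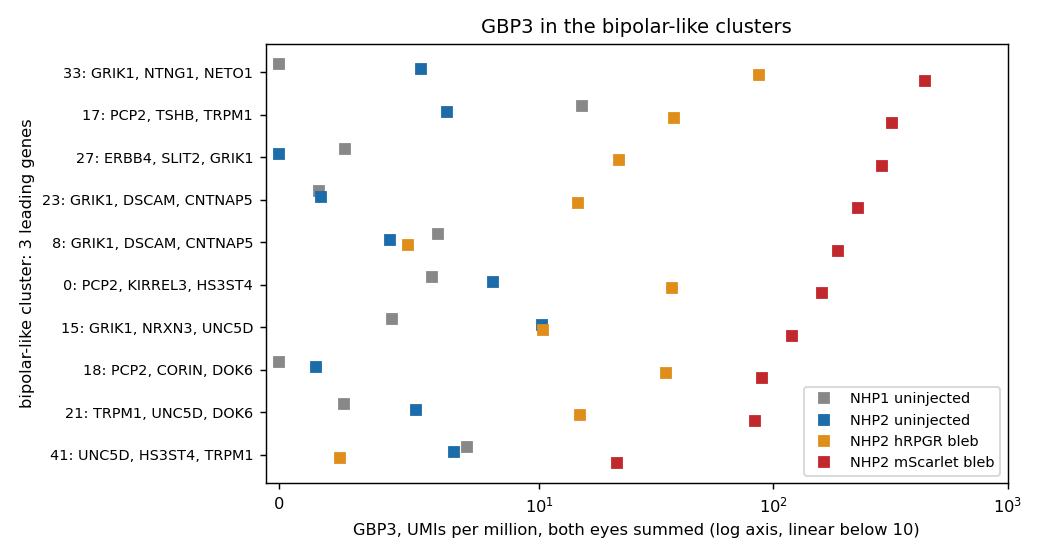
GBP3 level (CPM, log axis that is linear below 10) in each bipolar-like cluster, named by its number and 3 leading genes, with 1 symbol per area over both eyes. The mScarlet symbols run from 21.5 in cluster 41 to 443 in cluster 33, and the symbols of the uninjected areas of NHP2 stay at or below 10.2 (in NHP1, cluster 17 is at 15.2).

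The clusters that held the Müller-like cells differed between libraries. In the mScarlet blebs 45.0% and 53.7% of them were in cluster 13 (APOE, PLAC9 and RLBP1) and 49.5% and 41.7% in cluster 55 (TF, WIF1 and FRZB). The right uninjected area held 55.9% and 42.5% in these 2 clusters and the right hRPGR bleb 60.0% and 35.1%, whereas the left uninjected area held 50.7% in cluster 12 and 32.3% in cluster 20. Within cluster 13 GBP3 was 3.24 and 2.13 CPM (4 UMIs and 1 UMI) in the uninjected areas, 63.5 and 94.2 CPM in the hRPGR blebs, and 21.1 and 113 CPM in the mScarlet blebs. Within cluster 55 the right uninjected library held 10.7 CPM, against 53.1 and 90.3 CPM in the hRPGR blebs and 172 and 277 CPM in the mScarlet blebs. In cluster 55 the left uninjected library had 1 cell. The right mScarlet value of cluster 13 rested on 17 UMIs, and free RNA of that library was at 15.6 CPM. The order of areas within these clusters is a description, as the share of all genes with that order was not counted. In cluster 55 the mScarlet bleb was above the hRPGR bleb in both eyes, and in cluster 13 it was below in the right eye. Clusters 12 and 20, which held 37.0% and 21.1% of the Müller-like cells of the left hRPGR bleb, had low levels there: 1.40 CPM against 1.93 CPM in the left uninjected area for cluster 12 (2 and 6 UMIs), and 11.5 against 5.85 CPM for cluster 20.

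Transgene status was not used to choose the family, so GBP3 was tested between rods of the same bleb with and without a UMI of its transgene. GBP3 was 3.37 CPM with and 0 without in the right hRPGR bleb (58 cells without, which allow up to 13.6 CPM), 1.69 and 1.55 CPM in the left hRPGR bleb, 3.22 and 5.05 CPM in the right mScarlet bleb, and 4.51 and 5.01 CPM in the left mScarlet bleb. The direction was not the same in all blebs, nor in each of them once cells were thinned to 1500 UMIs, where the right mScarlet bleb held 3.95 CPM with and 2.98 without, and the left hRPGR bleb 0.612 and 1.76. The log2 fold change by edgeR was -0.28 with an SE of 0.225 (adjusted p = 0.929), so that no difference beyond the spread was detectable. In that test edgeR called 0 of 12261 genes (0% called), with 603 at an unadjusted p under 0.05, and DESeq2 also called 0. That background depended on the libraries and settings, since edgeR called 1108 genes without the left hRPGR library, 4 without the right and 1 without the left mScarlet library, 85 with no low-count filter and 14 after thinning. GBP3 was not called in any of these fits. All these rod values lie below the free RNA of their libraries.

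The pathway around GBP3 was followed with a list of 67 genes by role, 58 of which were found. The list was tested between the blebs and the uninjected areas of NHP2 in the 4 largest neural and glial classes. It was chosen with earlier results of these data known. Its counts against all genes, and the p-values of its genes, therefore describe these libraries and are no independent support. In the same fits GBP3 itself was called in bipolar-like cells of both blebs and in Müller-like cells of the mScarlet blebs, from which nothing is read since it was chosen by this contrast. No list gene was called lower in any comparison.

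Among ligands, IFNG was seen almost only in T/NK-like cells, with 217 of its 221 UMIs. Of T/NK-like cells, 106 of 657 (16.1%) held an IFNG UMI in the mScarlet blebs, 12 of 133 (9.02%) in the hRPGR blebs, 4 of 60 (6.67%) in the uninjected areas and 1 of 48 (2.08%) in NHP1. IFNB1 had 3 UMIs and IFNK had 1 in all cells, and IFNL1 had 133, of which 17 were in T/NK-like cells. Rod-like and Müller-like cells had no IFNG UMI.

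The receptors and kinases were present in every class tested, and 1 receptor passed the test. IFNGR1 in bipolar-like cells was 34.4 and 34.0 CPM in the mScarlet blebs and 37.5 and 34.8 CPM in the uninjected areas, and JAK1 was 108 and 105 against 102 and 101 CPM. That receptor was IFNAR2, a chain of the type I interferon receptor, which rose in bipolar-like cells of the mScarlet blebs from 23.6 and 25.1 to 44.0 and 52.4 CPM (log2 fold change 0.99, SE 0.13, adjusted p = 0.00357). No kinase and no gene of protein prenylation was called.

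In bipolar-like cells, 12 of 40 list genes tested were raised in the mScarlet blebs, against 0.849% of all 12963 genes. IRF1 went from 4.15 and 6.81 CPM to 48.8 and 57.9 CPM (log2 fold change 3.28, SE 0.20, adjusted p = 1.63e-05). PSMB8 went from 16.2 and 9.02 to 144 and 180 CPM (3.68, SE 0.20, adjusted p = 9.98e-06), and NLRC5, a transactivator of MHC class I genes, from 11.5 and 4.97 to 87.7 and 119 CPM. Beside these and IFNAR2 they were IRF7, GBP7, APOL2, UBE2L6, CXCL10, PSMB9, B2M and CD74. Of the 12, 3 were below free RNA in both mScarlet blebs: APOL2 (0.752 and 0.632 times free RNA), CXCL10 (0.157 and 0.122) and CD74 (0.0915 and 0.0964), and the part of free RNA in them was not tested. CXCL10 was at 0 in both uninjected areas and at 2.34 and 10.0 CPM in the mScarlet blebs. The list's median log2 fold change was 0.61, where that of all genes was 0.00. Without the left mScarlet library 7 list genes were called.

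In rod-like cells, 11 of 45 list genes were raised in the mScarlet blebs, against 1.36% of all genes, although GBP3 was below free RNA there. B2M, the light chain of MHC class I, went from 30.4 and 28.4 to 924 and 1174 CPM (log2 fold change 5.12, SE 0.51, adjusted p = 0.00994). PSMB9 went from 3.28 and 1.76 to 181 and 217 CPM, and SOCS1, an inhibitor of JAK kinases, from 0.526 and 1.31 to 7.33 and 12.2 CPM. IRF1, IRF2, IRF7, NLRC5, SOCS3, UBE2L6, CXCL10 and PSMB8 were the others. Of the 11, 2 were below free RNA in both mScarlet blebs: UBE2L6 (0.512 and 0.419 times) and CXCL10 (0.0418 and 0.0365 times, at 0.624 and 2.99 CPM). With 0.1 of the free RNA level subtracted, CXCL10 was 0 in the blebs and in the uninjected areas. UBE2L6 was then 3.22 and 5.97 CPM in the blebs and 0 in the uninjected areas. The part of free RNA in these 2 genes was not otherwise tested. The other called genes were above free RNA, as B2M at 3.15 and 1.80 times and PSMB8 at 4.59 and 2.89 times. This count leaned on single libraries: it was 0 without either mScarlet library, 4 without the left uninjected, 22 without the right uninjected and 17 without the right hRPGR library. It was 7 with the eye as a block and 3 with unnamed rod clusters counted as rods, and DESeq2 called 18. Different clusters held most rods of the mScarlet and of the uninjected areas: clusters 3, 46 and 56 held 34.3%, 41.4% and 23.5% of the mScarlet rods, and clusters 4, 45, 48, 49 and 53 held 15.2%, 14.8%, 38.9%, 18.6% and 11% of the uninjected rods. Unnamed rod clusters were 20.0% and 20.1% of all cells in the mScarlet blebs and 3.38% and 3.73% in the uninjected areas, and the part of this makeup in the count was not tested.

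In cone-like cells, 9 of 35 list genes were raised in the mScarlet blebs, against 2.32% of all genes. These were STAT3, IRF1, IRF7, NLRC5, WARS1, PSMB8, PSMB9, B2M and RNF213, a large ATPase that interferon induces. NLRC5 went from 2.44 and 2.78 to 99.4 and 91.3 CPM (log2 fold change 5.06, SE 0.33, adjusted p = 6.75e-05). RNF213 was below free RNA in both blebs (0.838 and 0.848 times) and B2M in the left (0.554). Without the left mScarlet library 5 were called, and 6 without the right mScarlet or left uninjected library.

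In Müller-like cells, 3 of 49 list genes were raised in the mScarlet blebs, against 0.203% of all genes, and all 3 are listed here. CXCL10 went from 0.451 and 0.9004 to 801 and 776 CPM, UBD, a ubiquitin-like protein, from 0 and 0.675 to 38.9 and 73.7 CPM, and IRF1 from 20.7 and 16.7 to 88.6 and 157 CPM (log2 fold change 2.66, SE 0.30, adjusted p = 0.0394). With the eye as a block 1 was called, without the right uninjected library 16, and without the left mScarlet, the left uninjected or either hRPGR library 1 (2 without the right mScarlet library). DESeq2 called 11. The right uninjected library, which held coRPGR UMIs, stood apart from the left in Müller-like cells: PSMB8 was 141 against 26.5 CPM, PSMB9 90.6 against 9.23 CPM and PARP14 87.0 against 11.7 CPM. PSMB8 was 202 and 90.5 CPM in the hRPGR blebs and 276 and 391 CPM in the mScarlet blebs. The part of the coRPGR transcripts in this was not tested.

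In the hRPGR blebs fewer list genes were called. In rods edgeR called 0 of 45 and 0% of all genes, with 13 list genes at an unadjusted p under 0.05 and 6 called by DESeq2, and without the left or the right hRPGR library 7 and 3. In cones it called 0 of 35 and 0.0784% of all genes, with 6 at an unadjusted p under 0.05 and 2 called by DESeq2, and 4 without the left hRPGR library. Bipolar-like cells had 2 of 40, against 0.0694% of all genes. These were IRF1 (from 4.15 and 6.81 to 17.7 and 16.4 CPM, log2 fold change 1.63, SE 0.23, adjusted p = 0.0353) and PSMB8 (log2 fold change 1.81). With likely doublets kept, neither was called. Leaving out the right hRPGR or either mScarlet library gave 0, the left hRPGR library 1 and the right uninjected library 4. Müller-like cells had 1 of 49, CXCL10 at 164 and 163 CPM, against 0.0078% of all genes. Whether the response differed between the hRPGR and mScarlet blebs was not tested, and both share the uninjected libraries.

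**Figure D5:**
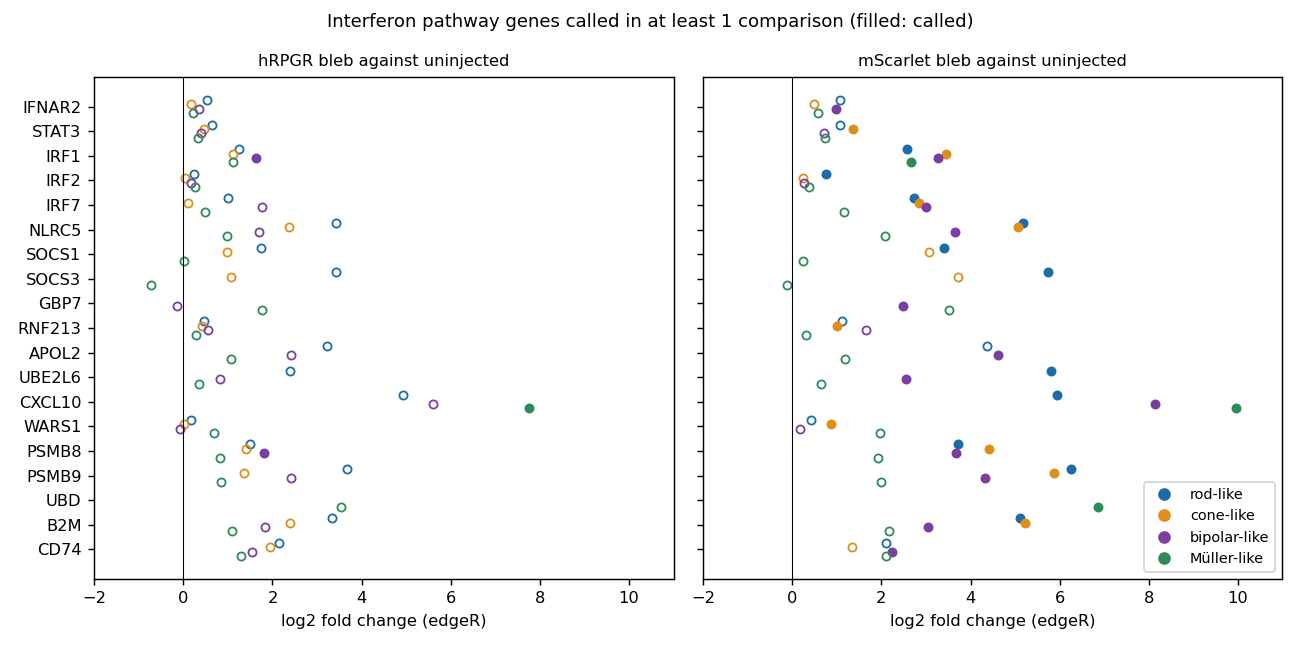
edgeR log2 fold changes (x axis) of the interferon pathway genes called in at least 1 comparison, for the mScarlet and hRPGR blebs against the uninjected areas, with 1 colour per cell class and filled circles for called genes. All called values lie above 0; those of CXCL10 and UBD depend on the small count that edgeR adds, because their uninjected levels are at or near 0.

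Of the other 2 GBP features, GBP7 was raised in bipolar-like cells and GBP6 was nearly absent. GBP7 in bipolar-like cells went from 1.13 and 1.29 CPM in the uninjected areas to 6.84 and 7.01 CPM in the mScarlet blebs (log2 fold change 2.49, SE 0.37, adjusted p = 0.00972 in edgeR, 0.0552 in DESeq2). In Müller-like cells it was 2.48 and 1.46 CPM and 16.1 and 28.6 CPM (log2 fold change 3.51, adjusted p = 0.0519, which misses the threshold). In rods GBP7 did not exceed 0.705 CPM in any library of NHP2. GBP6 had 23 UMIs over the compared classes and libraries.

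The genes whose levels ran most like GBP3 over 63 points of class and library were PARP14 (Pearson r = 0.89 of log2 CPM + 1), SP100 (0.89), DDX60L (0.89), PSMB10 (0.88) and IFI30 (0.87), among 16916 genes with a median r of -0.14. GBP genes were left out of this ranking: GBP7, which shares sequence with GBP3, had an r of 0.88, and 0.85 without immune classes. Points share libraries and depth, so these are descriptions. Over the 48 points without immune classes the values were 0.81, 0.82, 0.76, 0.74 and 0.74. PSMB10 was also on the pathway list.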

How the data were processed

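Single-cell RNA was measured in 8 libraries. The authors deposited unfiltered UMI counts per barcode, made with Cell Ranger on Mmul_10 with transgene sequences added (version not given in the sources used here). Cells passed with a minimum of 1500 UMIs and 300 genes and a mitochondrial share of 20% or less. Likely doublets were removed by a neighbour score (0.8% per 1000 cells), leaving 83192 of 91796 cells, clustered with scanpy 1.11.5 and leidenalg 0.10.2 and named from marker lists. Since names were rebuilt, classes may differ from those of the study. Levels are UMIs per 1000000 UMIs of the class (CPM). Counts summed per class and library were tested with edgeR 4.0.16 (quasi-likelihood, TMM, filterByExpr, Benjamini-Hochberg over all genes, threshold 0.05), with DESeq2 1.42.0 as an alternative. All 6 NHP2 libraries were fitted together. The edgeR fits were tried on simulated counts. The areas of NHP2 are paired by eye, all within 1 animal; the left-right differences of pairs of areas correlated at -0.307 to 0.0991. blastn 2.17.0+ compared transcripts.

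The members and gene lists were chosen with earlier results of these data known. Called genes of the list were named, up to 10 by p in each comparison and the others as a list, and the 5 genes most like GBP3. A count of 0 allows 3 counts of the total, for counting error only. A gene of the pathway list is not reported here.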

Additional observations from a re-analysis of the deposited data

How the results depend on the processing

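Counts of pathway genes called changed with the processing. DESeq2 called 18 and 6 in rods (mScarlet, hRPGR), 2 in hRPGR cones, and 11 and 2 in Müller-like cells. With no low-count filter edgeR called 23 and 8 in rods, 17 and 6 in cones, 23 and 10 in bipolar-like cells, and 12 and 2 in Müller-like cells. With the eye as a replicate block 7 were called in mScarlet rods and 1 in mScarlet Müller-like cells, and no other count moved by over 1.5 times under the block. Keeping doublets gave 0 in hRPGR bipolar-like and 6 in mScarlet Müller-like cells, and a minimum of 3000 UMIs gave 6 in the latter. An alternative chosen after seeing the data, unnamed rod clusters counted as rods, gave 3 in mScarlet rods. Leaving out 1 library gave 0 to 22 and 0 to 7 in rods, 5 to 12 and 0 to 4 in cones, 7 to 15 and 0 to 4 in bipolar-like cells, and 1 to 16 and 1 in every case in Müller-like cells; a lone library of an area is then assumed to vary like the others. The cause of these changes was not tested. For GBP3, subtracting 0.1 of the free RNA turned the mScarlet log2 ratio of rods to -0.058 and moved that of cones to 1.45, and no other alternative turned a direction except in hRPGR rods, where leaving out 1 library gave -0.18 to 0.83. The other ranges were 1.00 to 1.34 in mScarlet rods, 2.15 to 2.70 and 0.93 to 1.89 in cones, 4.93 to 5.32 and 1.85 to 2.49 in bipolar-like cells, 4.55 to 5.59 and 2.50 to 3.55 in Müller-like cells, and -0.40 to -0.05 for rods with against without transgene. The share of cells with a GBP3 UMI, over both eyes, was 19.5%, 4.18%, 14.0% and 5.01% after thinning to 3000 UMIs and 27.0%, 7.08%, 17.7% and 7.30% without thinning, in bipolar-like (mScarlet, hRPGR) and Müller-like cells. Few GBP3 UMIs limit the cone values, those of ganglion-like cells, and those of horizontal-like cells in the uninjected areas and the hRPGR blebs.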
